A study of Mus musculus with 4 samples.

Results

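Trophectoderm transcription factors are the DNA-binding proteins and partners that set apart the outer layer of the mouse blastocyst, and 10 of their genes were described here: Cdx2, Gata2, Gata3, Eomes, Tfap2a, Tfap2c, Elf3, Tead4, Id2 and Hand1. They were taken by name from a count table of 21470 genes, and 9 of the 10, all but Hand1, were among the 6943 genes with enough counts to be tested. All embryos were wild type, from B6D2F1 fathers and ICR mothers, and the labels name no transgene or drug. The groups were trophectoderm (TE, labelled as the extra-embryonic side) and inner cell mass (ICM, labelled as the embryonic side) at D10, and TE and ICM at E4, with 5 barcoded libraries in each. The barcode list deposited with the counts marks D10 as day 6 and E4 as before, and the series title places the samples before and after diapause, whereas the protocol speaks of diapause embryos for D10 and E4 alike; this conflict is unresolved. The libraries of a group were mixed before amplification, so each group was 1 pool, and effects of the pool and of the group cannot be told apart.

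The trophectoderm is the epithelium that pumps fluid into the blastocyst, attaches to the uterus and later builds the placenta. In the mouse, TEAD4 with its coactivator YAP switches on Cdx2 and Gata3 in outer cells, and CDX2 then represses pluripotency genes such as Pou5f1 and maintains the lineage together with EOMES, the AP-2 factors and ELF-family factors. GATA2 and GATA3 act with TFAP2C in trophoblast, ID2 is a partner that lacks a DNA-binding domain and is among the early markers of outer cells, and HAND1 drives differentiation into trophoblast giant cells. In diapause the blastocyst pauses without implanting, growth slows, and both lineages are kept until the arrest is lifted.

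The letters just upstream of 4 members are shown because these genes carry the main patterns that follow: Gata3 and Cdx2 were higher in TE than ICM at both times, and Eomes and Tfap2a fell in the TE at D10. Each line gives the 250 bases before the first RefSeq start on GRCm38.p6, 5′ to 3′ on the gene's own strand, for Cdx2 (chr5:147307250-147307499, minus strand), Gata3 (chr2:9878601-9878850, minus strand), Eomes (chr9:118477939-118478188, plus strand) and Tfap2a (chr13:40734921-40735170, minus strand), with capitals on matches to the motifs searched.
Cdx2: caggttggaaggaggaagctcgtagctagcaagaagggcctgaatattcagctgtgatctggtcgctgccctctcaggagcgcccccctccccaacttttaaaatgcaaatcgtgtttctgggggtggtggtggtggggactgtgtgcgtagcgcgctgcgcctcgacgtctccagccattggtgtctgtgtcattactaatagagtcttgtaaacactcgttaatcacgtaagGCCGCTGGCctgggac
Gata3: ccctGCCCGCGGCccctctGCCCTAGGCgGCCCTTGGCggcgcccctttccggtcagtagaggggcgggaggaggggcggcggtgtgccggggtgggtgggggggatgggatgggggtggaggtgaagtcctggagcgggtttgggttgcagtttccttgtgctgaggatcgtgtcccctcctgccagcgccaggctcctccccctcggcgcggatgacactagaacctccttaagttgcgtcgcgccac
Eomes: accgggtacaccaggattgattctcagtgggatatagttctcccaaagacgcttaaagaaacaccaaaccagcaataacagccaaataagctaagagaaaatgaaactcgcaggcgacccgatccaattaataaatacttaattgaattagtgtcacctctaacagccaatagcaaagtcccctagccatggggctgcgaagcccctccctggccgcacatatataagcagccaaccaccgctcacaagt
Tfap2a: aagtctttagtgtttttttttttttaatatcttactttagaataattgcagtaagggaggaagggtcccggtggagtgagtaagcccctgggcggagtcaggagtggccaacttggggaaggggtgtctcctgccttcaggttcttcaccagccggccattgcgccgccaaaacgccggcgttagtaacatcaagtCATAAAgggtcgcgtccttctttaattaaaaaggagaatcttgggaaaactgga

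Both strands were searched for a GATA motif (AGATAA), a TEAD motif (GGAATG), an AP-2 motif (GCCNNNGGC, where N is any base), a T-box motif (GGTGTGA) and a CDX motif (TTTATG), and none of the marked matches overlap. Cdx2 holds 1 AP-2 match, at bases -16 to -8 counted back from the start, and Gata3 holds 3, at -246 to -238, -231 to -223 and -221 to -213. Tfap2a holds 1 CDX match, read as CATAAA on its own strand, at -54 to -49, and the Eomes letters hold no match to these motifs. Of 32851 RefSeq windows of the same length, 13.7% hold the AP-2 motif, 12.6% the TEAD motif, 10.8% the CDX motif, 9.99% the GATA motif and 3.33% the T-box motif. A match describes letters and does not show a site in use. GENCODE gives longer spans than RefSeq for Gata3 and Tfap2a, so their windows lie inside those spans, and the Cdx2 window overlaps the first bases of its span. RefSeq windows were found for 7 of the 10 members, and among those not printed Elf3 holds a TEAD match at -235 to -230 and Id2 a CDX match at -29 to -24, while a second start of Gata2 holds a TEAD match at -120 to -115 and an AP-2 match at -222 to -214.

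Sequencing depth and the levels of tissue markers are described first. The marker lists were chosen with earlier results of these data known, so their sums are not an independent check of tissue identity. Total counts ran from 144276 to 1010354 per library, and levels are given as CPM, counts scaled to a common library size with a TMM factor, with per-library values in the order of replicates 1 to 5. A summed set of 29 trophectoderm epithelium markers lay between 16806 and 20713 CPM in D10 TE, against 7235 to 10376 in D10 ICM. The set holds keratins, claudins and transporters but also other genes, of which Gm2a averaged 3215 CPM in D10 TE. At E4 it lay between 15752 and 19217 in TE, against 4500 to 6067 in ICM. The ICM libraries thus carried these transcripts as well, at 8805 ± 1318 CPM in D10 ICM and 5451 ± 626 in E4 ICM (SD, n = 5), and all 29 markers had counts in every group. Primitive endoderm markers, which label the ICM-derived layer facing the cavity, summed to 609 to 1734 CPM in D10 TE, with replicate 1 the highest, against 9124 to 13947 in D10 ICM, and to 399 to 930 in E4 TE, against 2200 to 6094 in E4 ICM.

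Epiblast markers summed to 1710 to 2301 CPM in D10 TE, against 2919 to 3457 in D10 ICM, and to 2232 to 5163 in E4 TE, against 4276 to 6232 in E4 ICM. Of this list, Dppa5a, Fbxo15, Sall4 and Tfcp2l1 were also abundant in TE, whereas Sox2, the epiblast factor, had 0 counts in D10 TE and 1 in E4 TE, against 470 in D10 ICM and 421 in E4 ICM. Pou5f1, the pluripotency factor that defines the ICM, was nearly absent from every group, with 0 counts in D10 TE, 1 in D10 ICM, 0 in E4 TE and 8 in E4 ICM and could not serve as a marker. Nanog, another pluripotency factor, had 4 counts in D10 TE, against 51 in D10 ICM, and 10 in E4 TE, against 265 in E4 ICM. The low Pou5f1 counts are therefore not read as absence of its expression, and whether its reads were lost in counting was not tested. In bulk tissue, fewer cells of a type and less RNA per cell cannot be told apart. The plot of marker sums shows these values by library.

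**Figure D1:**
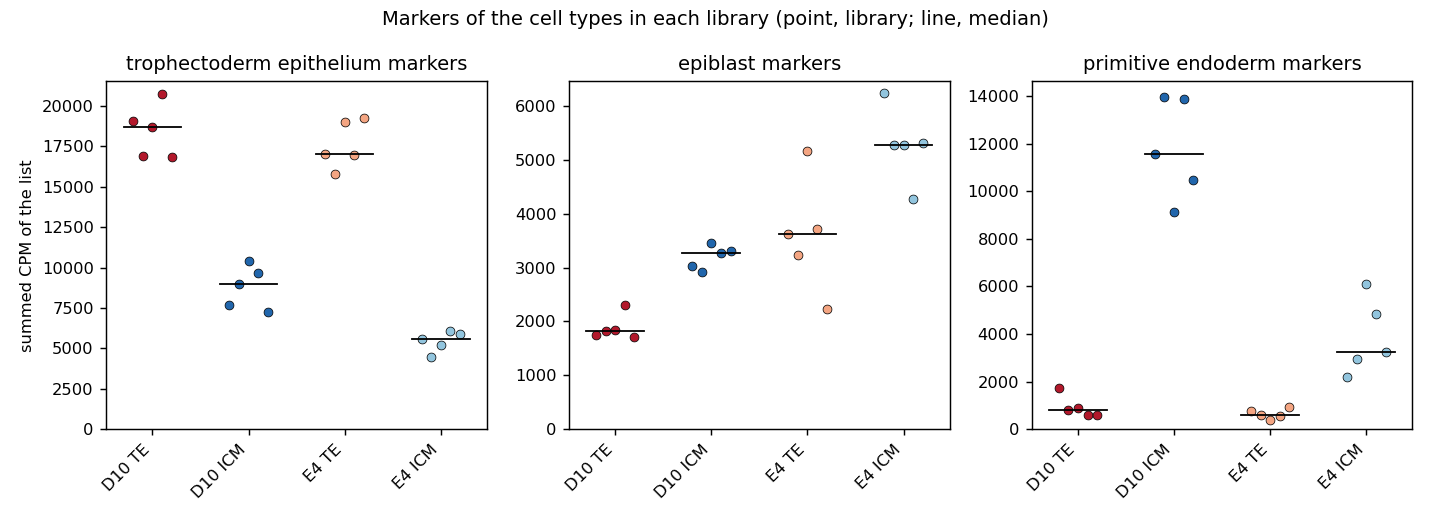
Summed CPM of trophectoderm epithelium, epiblast and primitive endoderm markers in each library (points) with the group median (line), for D10 TE, D10 ICM, E4 TE and E4 ICM, n = 5 each. Trophectoderm markers in ICM reach 7235 to 10376 CPM at D10 and 4500 to 6067 at E4, and primitive endoderm markers are the highest in D10 ICM.

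8 of the 9 tested factors were higher in TE than in ICM, at D10 and again at E4, and Tead4 was the one that did not pass at either time. The E4 count includes Cdx2, whose call failed in 8 of 27 alternatives. The count, 8 of 9, stands beside 12.6% of all tested genes called higher and 12.9% called lower in TE at D10, and 15.4% called higher and 15.8% called lower at E4 (edgeR quasi-likelihood test, Benjamini-Hochberg adjusted p under 0.05). The estimates of all 9 were positive at both times. The median log2 fold change, TE over ICM, was 1.25 for the 9 factors against -0.01 over all 6943 genes at D10, and 1.74 against -0.03 at E4. These medians leave out Hand1, which had too few counts. The factors were listed as trophectoderm genes and chosen with earlier results of these data known. Neither the count nor the medians are therefore an independent test of the list. The same holds for the gene lists described further below. Within litters, TE exceeded ICM in 5 of 5 litters at both times for 7 of the 9. The exceptions were Cdx2 (4 of 5 at E4) and Tead4 (4 of 5 at each time). The share of all tested genes with such signs or such litter counts was not computed. Both come from the same libraries as the calls and are not further evidence.

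**Figure D2:**
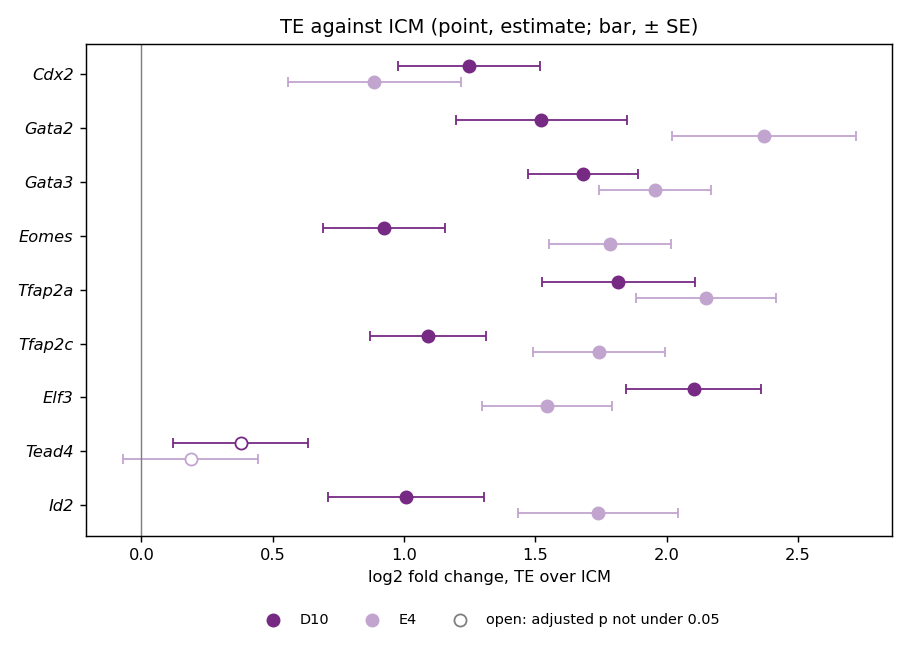
Log2 fold change, TE over ICM, for the 9 tested factors at D10 (dark) and E4 (light); points are estimates, bars are ± SE, and open points did not pass an adjusted p of 0.05. All points but the 2 of Tead4 are filled, and they run from 0.89 to 2.37.

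Over time fewer of the factors passed, some higher and some lower, and counts this small are not read as a trait of the list. In the TE, 2 of the 9 were higher at D10 than at E4 (Cdx2 and Tfap2c) and 2 were lower (Eomes and Tfap2a), where 11.9% of all tested genes were called higher and 9.89% lower. In the ICM, 2 were higher (Gata3 and Tfap2c) and 2 lower (Tfap2a and Elf3), where 13.7% of all tested genes were called higher and 9.97% lower. The ICM libraries of D10 also had higher trophectoderm epithelium sums (8805 against 5451 CPM on average), higher primitive endoderm sums (11804 against 3870) and lower epiblast sums (3197 against 5272) than those of E4, and the part of these shifts in the 4 ICM results was not tested. The median log2 fold change, D10 over E4, was -0.18 for the 9 factors in the TE, against 0.02 over all genes, and 0.21 in the ICM, against -0.00 over all genes. The tissue and time comparisons share libraries, so they are not independent of each other.

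**Figure D3:**
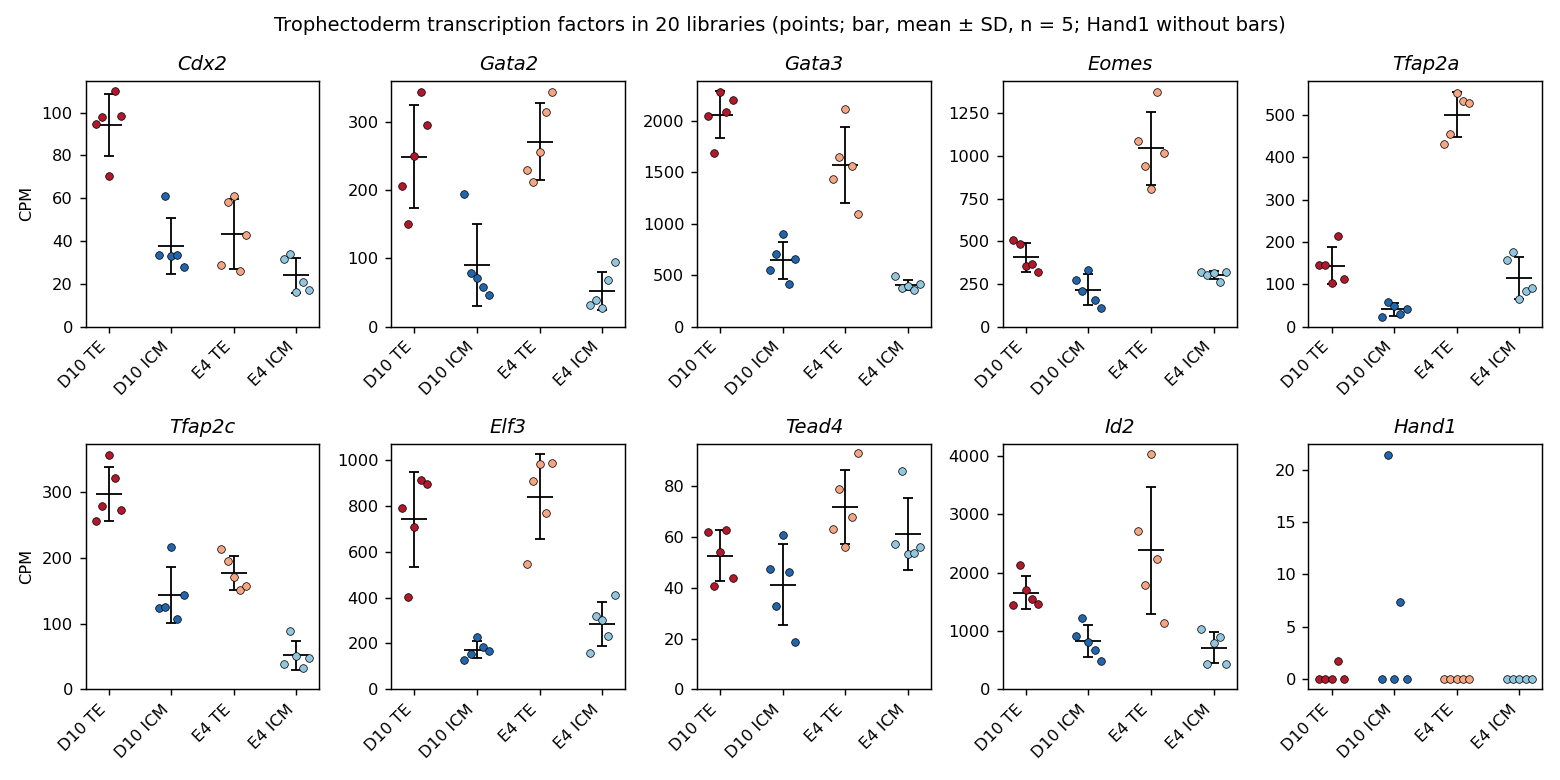
CPM of each of the 10 factors in every library (points) with mean ± SD (bars, n = 5) for D10 TE, D10 ICM, E4 TE and E4 ICM; Hand1 has points without bars. Eomes and Tfap2a reach their highest levels in E4 TE, with means of 1045 and 501 CPM, while Cdx2, Gata3 and Tfap2c do so in D10 TE, with means of 94.3, 2063 and 297 CPM.

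Cdx2 (ENSMUSG00000029646, chromosome 5, 147300805 to 147307270, minus strand, GRCm38) encodes the caudal-type homeobox protein that the mouse trophectoderm needs. In D10 TE it had 94.9, 97.9, 70.2, 110.1 and 98.3 CPM, against 33.3, 61.0, 33.2, 33.6 and 27.9 in D10 ICM. In E4 TE it had 28.8, 58.1, 60.9, 25.9 and 42.9 CPM, against 31.7, 34.0, 16.2, 20.7 and 17.2 in E4 ICM. Every D10 TE library was above every other library, and ICM and TE overlapped at E4, where TE replicates 1 and 4 lay within the ICM range. The log2 fold change, TE over ICM, was 1.25 ± 0.27 (SE, adjusted p = 0.00109) at D10 and 0.89 ± 0.33 (SE, adjusted p = 0.0415) at E4. The E4 call rests on 63 counts in TE and 39 in ICM. It failed in 8 of 27 alternatives, with an adjusted p of up to 0.149: without a filter, with DESeq2, with limma voom, and on leaving out any of replicates 3, 4 and 5 of E4 ICM or replicates 2 and 3 of E4 TE.

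Cdx2 rose in the TE over time, to 94.3 ± 14.6 CPM at D10 against 43.3 ± 16.1 at E4 (SD, n = 5), a log2 fold change of 1.11 ± 0.28 (SE, adjusted p = 0.00491) that held in every alternative in which Cdx2 was tested. In the ICM it averaged 37.8 ± 13.2 CPM at D10 and 23.9 ± 8.31 at E4, a log2 difference of 0.75 ± 0.32 (SE, adjusted p = 0.0916) that did not pass. Without the 2 E4 litters that still had a zona pellucida it passed, with an adjusted p of 0.0466. D10 ICM replicate 2, at 61.0 CPM, stood apart from the other libraries of that group.

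Gata3 (ENSMUSG00000015619, chromosome 2, 9857078 to 9890034, minus strand) and Gata2 (ENSMUSG00000015053, chromosome 6, 88193891 to 88207032, plus strand) encode zinc-finger factors that bind GATA sequences in trophoblast. Gata3 had 2048, 1686, 2283, 2086 and 2210.0 CPM in D10 TE, against 547, 707, 903, 419.8 and 655 in D10 ICM. At E4 it had 1439, 1651, 2118, 1564 and 1095 CPM in TE, against 488, 376, 398, 359.8 and 417 in ICM. The lowest TE library was above the highest ICM library at both times. The log2 fold change, TE over ICM, was 1.68 ± 0.21 (SE, adjusted p = 1.39e-06) at D10 and 1.96 ± 0.21 (SE, adjusted p = 2.86e-07) at E4, and the calls held in all 28 alternatives at D10 and all 29 at E4. The mean in ICM was 31.3% of that in TE at D10 and 25.9% at E4.

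Over time Gata3 rose in the ICM, to 646 ± 181 CPM at D10 against 408 ± 49.9 at E4, with a log2 fold change of 0.66 ± 0.21 (SE, adjusted p = 0.0229). The ranges overlapped through D10 ICM replicate 4, and the call failed without a filter, without the zona litters, without E4 ICM replicate 4 and without D10 ICM replicate 3 (adjusted p up to 0.0809). In the TE, Gata3 averaged 2063 ± 231 CPM at D10 and 1573 ± 371 at E4, and the log2 difference of 0.39 ± 0.20 (SE, adjusted p = 0.178) did not pass.

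Gata2 had 206, 151, 251, 344 and 295 CPM in D10 TE, against 195, 79.1, 72.0, 57.7 and 46.4 in D10 ICM. E4 levels were 230.2, 212, 256, 315 and 343 CPM in TE, against 31.7, 39.2, 27.8, 68.2 and 94.6 in ICM. TE and ICM were apart at E4, while at D10 they overlapped through ICM replicate 1 alone, which lay far above the other D10 ICM libraries. In litter E, which gave replicate 1 at D10, TE was only 1.06 times ICM. The log2 fold change, TE over ICM, was 1.52 ± 0.33 (SE, adjusted p = 0.000965) at D10 and 2.37 ± 0.35 (SE, adjusted p = 1.37e-05) at E4. Neither change over time passed, with log2 differences, D10 over E4, of -0.12 ± 0.30 (SE, adjusted p = 0.831) in the TE and 0.73 ± 0.37 (SE, adjusted p = 0.154) in the ICM, and 95% intervals of -0.74 to 0.50 and -0.02 to 1.48. The estimate in the TE was near 0 without D10 TE replicate 2.

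Eomes (ENSMUSG00000032446, chromosome 9, 118478212 to 118486132, plus strand) encodes a T-box factor of the mouse trophoblast stem cell state. It had 506, 487, 353, 365 and 319.6 CPM in D10 TE, against 276, 209, 332, 158 and 111 in D10 ICM. At E4 the gene had 1088, 941, 806, 1377 and 1016 CPM in TE, against 323, 303, 313, 265 and 318 in ICM. E4 TE stood above every other library, the E4 ICM libraries lay close together, and at D10 the tissues overlapped through ICM replicate 3, which exceeded TE replicate 5. The log2 fold change, TE over ICM, was 0.93 ± 0.23 (SE, adjusted p = 0.00397) at D10 and 1.78 ± 0.23 (SE, adjusted p = 2.64e-06) at E4. Eomes fell in the TE over time, to 406 ± 84.3 CPM at D10 against 1045 ± 212 at E4, with a log2 fold change of -1.36 ± 0.23 (SE, adjusted p = 9.56e-05), and this held in every alternative.

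In the ICM, Eomes averaged 217 ± 88.6 CPM at D10 and 304 ± 23.4 at E4, and the log2 difference of -0.50 ± 0.24 (SE, adjusted p = 0.125) did not pass, although it did without D10 ICM replicate 3 (adjusted p = 0.0384). An antisense gene, Gm33460, overlaps the 3′ end of Eomes, where these reads fall. It had 50 counts over the 20 libraries, against 3522 for Eomes, and whether counting used strand is not given in the sources used here.

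The AP-2 factors are related DNA-binding proteins, and the list holds a pair of them. Tfap2a (ENSMUSG00000021359, chromosome 13, 40715302 to 40738376, minus strand) had 146, 145, 104, 215 and 112 CPM in D10 TE, against 23.8, 59.3, 49.9, 29.4 and 41.8 in D10 ICM. The E4 libraries had 432, 456, 553, 534 and 529 CPM in TE, against 158, 178, 64.9, 84.8 and 90.3 in ICM. All E4 TE libraries were above all others, and all D10 ICM libraries were below all others. Tfap2a fell in both tissues, with log2 fold changes, D10 over E4, of -1.79 ± 0.25 (SE, adjusted p = 1.34e-05) in the TE and -1.45 ± 0.30 (SE, adjusted p = 0.00111) in the ICM. In E4 ICM the litters with a zona, replicates 1 and 2, were the highest, and without the zona litters the ICM change was -0.92 with an adjusted p of 0.0503. The tissue difference, TE over ICM, was 1.82 ± 0.29 (SE, adjusted p = 3.77e-05) at D10 and 2.15 ± 0.27 (SE, adjusted p = 1.63e-06) at E4. The antisense gene Gm26688, which overlaps Tfap2a away from its 3′ end, had 51 counts in all, against 1391 for Tfap2a.

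Tfap2c (ENSMUSG00000028640, chromosome 2, 172549593 to 172558622, plus strand), the AP-2 factor needed for trophoblast in the mouse, went the other way over time. It had 256, 279, 357, 321 and 273 CPM in D10 TE, against 124, 125, 216, 107 and 144 in D10 ICM. At E4 it had 213, 195, 170.4, 151 and 157 CPM in TE, against 38.0, 88.8, 51.0, 33.1 and 47.3 in ICM. Within each tissue every D10 library was above every E4 library, and within each time every TE library was above every ICM library. The log2 fold change, D10 over E4, was 0.75 ± 0.22 (SE, adjusted p = 0.0151) in the TE and 1.40 ± 0.25 (SE, adjusted p = 0.000255) in the ICM. The TE change missed the threshold without E4 TE replicate 4, with an adjusted p of 0.0531, and the ICM change held in every alternative. TE over ICM, the log2 fold change was 1.09 ± 0.22 (SE, adjusted p = 0.000573) at D10 and 1.74 ± 0.25 (SE, adjusted p = 1.01e-05) at E4.

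**Figure D4:**
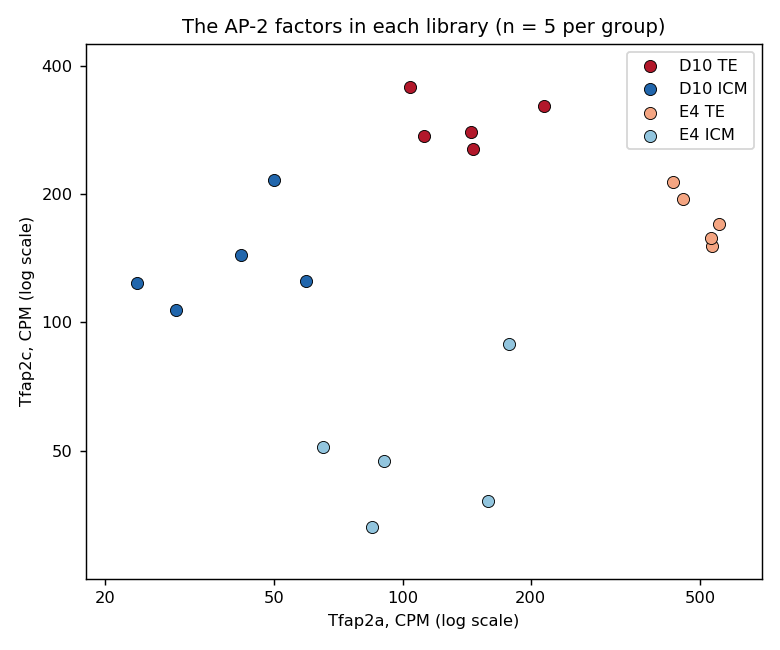
Tfap2c against Tfap2a in each library, both in CPM on log axes, for D10 TE, D10 ICM, E4 TE and E4 ICM (n = 5 each). The 4 groups form separate clouds: relative to E4, the D10 libraries of each tissue lie up and to the left, with Tfap2a means of 144 in D10 TE against 501 in E4 TE and Tfap2c means of 297 against 177.

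Elf3 (ENSMUSG00000003051, chromosome 1, 135253575 to 135258568, minus strand) encodes an ETS factor of epithelia. It had 788, 402, 706, 912 and 893 CPM in D10 TE, against 128, 155, 227, 186 and 167 in D10 ICM. The E4 values were 547, 908, 983, 769 and 987 CPM in TE, against 158, 321, 303, 234 and 413 in ICM. The tissues did not overlap at either time, and the log2 fold change, TE over ICM, was 2.10 ± 0.26 (SE, adjusted p = 1.05e-06) at D10 and 1.54 ± 0.25 (SE, adjusted p = 3.95e-05) at E4. Elf3 fell in the ICM over time, to 173 ± 36.9 CPM at D10 against 286 ± 95.7 at E4, a log2 fold change of -0.74 ± 0.26 (SE, adjusted p = 0.0368). The ICM ranges overlapped through E4 ICM replicate 1, and the call failed in 9 of 28 alternatives (adjusted p up to 0.131): without a filter, with limma voom, with thinned libraries, and on leaving out any of replicates 2, 3 and 5 of E4 ICM or replicates 1, 2 and 5 of D10 ICM. In the TE the log2 difference was -0.18 ± 0.24 (SE, adjusted p = 0.635), with a 95% interval of -0.67 to 0.31.

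Tead4 (ENSMUSG00000030353, chromosome 6, 128224288 to 128300823, minus strand), the TEA-domain factor that acts upstream of Cdx2 in the mouse embryo, had 62.1, 40.8, 54.2, 62.9 and 43.7 CPM in D10 TE, against 47.5, 33.0, 60.9, 46.2 and 18.6 in D10 ICM. At E4 there were 63.3, 78.8, 56.0, 67.7 and 93.0 CPM in TE, against 57.1, 86.2, 53.3, 53.8 and 55.9 in ICM. The tissues overlapped at both times, and E4 ICM replicate 2 lay apart from its group. The log2 difference, TE over ICM, was 0.38 ± 0.26 (SE, adjusted p = 0.311) at D10 and 0.19 ± 0.26 (SE, adjusted p = 0.615) at E4, with 95% intervals of -0.15 to 0.91 and -0.34 to 0.72. With libraries thinned to 1 depth, the E4 estimate was -0.065. Neither time difference passed, at -0.40 ± 0.25 (SE, adjusted p = 0.27) in the TE and -0.59 ± 0.26 (SE, adjusted p = 0.107) in the ICM on the log2 scale. The counts behind these values were 133 in D10 TE, 89 in D10 ICM, 100 in E4 TE and 104 in E4 ICM.

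Id2 (ENSMUSG00000020644, chromosome 12, 25093799 to 25097140, minus strand) encodes a helix-loop-helix partner that blocks DNA binding by other such proteins. It had 1449, 2129, 1699, 1553 and 1467 CPM in D10 TE, against 908, 1228, 814, 678 and 492 in D10 ICM. Its E4 levels were 2722, 1792, 4029, 2225 and 1130.4 CPM in TE, against 1027, 434, 797, 889 and 434 in ICM. TE exceeded ICM with no overlap at either time, and the E4 TE libraries were the most widely spread. The log2 fold change, TE over ICM, was 1.01 ± 0.30 (SE, adjusted p = 0.0134) at D10 and 1.74 ± 0.30 (SE, adjusted p = 9.79e-05) at E4. The D10 call held in every alternative, with an adjusted p of up to 0.0499. No change over time passed, with log2 differences, D10 over E4, of -0.52 ± 0.29 (SE, adjusted p = 0.211) in the TE and 0.21 ± 0.30 (SE, adjusted p = 0.661) in the ICM.

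Hand1 (ENSMUSG00000037335, chromosome 11, 57828705 to 57832818, minus strand), the basic helix-loop-helix factor of giant cells, was close to the limit of detection and was not tested. It had 1 count in D10 TE, in replicate 4, against 20 in D10 ICM, 13 of them in replicate 2 and 7 in replicate 4. These are the deepest libraries of that group, with 660445 and 1010354 counts, and their levels were 21.4 and 7.35 CPM. The ratio of pooled levels, D10 TE over D10 ICM, was 0.0437, with an exact (Clopper-Pearson) 95% interval of 0.00106 to 0.274. This interval takes each count as independent, covers at most counting error and leaves out the spread between libraries. At E4 it had 0 counts in TE and 0 in ICM, where 0 counts allow up to 3, or 5.92 to 20.8 CPM per library in TE and 6.84 to 18.8 in ICM.

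**Figure D5:**
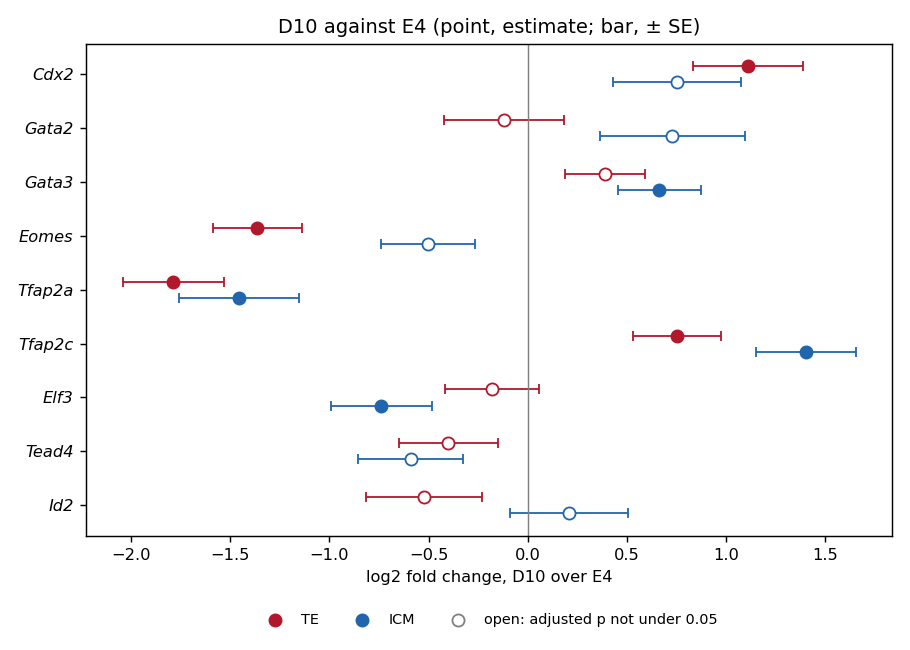
Log2 fold change, D10 over E4, for the 9 tested factors in the TE (red) and ICM (blue); points are estimates, bars are ± SE, and open points did not pass an adjusted p of 0.05. Tfap2a is filled on the left and Tfap2c on the right in both tissues, while Eomes at -1.36 and Cdx2 at 1.11 are filled in the TE and open in the ICM.

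A factor that passed over time in one tissue and not in the other is not thereby shown to differ between them, so the difference of the changes, TE minus ICM, was tested. None of the 9 factors passed with edgeR, nor with DESeq2 or limma voom, where 1.83% of all tested genes were called higher and 3.15% lower. At an unadjusted p under 0.05 there was 1, Eomes, with a log2 difference of -0.86 ± 0.32 (SE, adjusted p = 0.129) and a 95% interval of -1.53 to -0.19. It passed without D10 ICM replicate 5, with an adjusted p of 0.0395. The estimate was -0.65 ± 0.33 (SE, adjusted p = 0.289) for Tfap2c, -0.85 ± 0.48 (SE, adjusted p = 0.335) for Gata2, -0.73 ± 0.42 (SE, adjusted p = 0.345) for Id2 and 0.56 ± 0.35 (SE, adjusted p = 0.395) for Elf3. The median over the 9 was -0.33, against 0.02 over all genes.

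Relatives of the listed factors lay on both sides of the tissue comparison. Of 22 genes of the same families, 13 were tested. In TE against ICM 2 were higher and 5 lower at D10, and 3 were higher and 6 lower at E4. The median log2 fold changes were -0.22 and -0.35. Of all tested genes, 12.6% were called higher and 12.9% lower in TE at D10, and 15.4% and 15.8% at E4. Tead3, a TEA-domain factor, was higher in TE, at 113 ± 46.4 CPM against 17.7 ± 14.2 in ICM at D10 and 254 ± 107 against 32.4 ± 27.2 at E4. Its log2 fold changes were 2.30 ± 0.46 and 2.94 ± 0.44. Tbx3, a T-box factor, was lower in TE, at 22.4 ± 17.4 CPM against 139.6 ± 34.8 at D10 and 32.2 ± 13.4 against 175 ± 34.4 at E4. Gata4, which the primitive endoderm list also holds, was lower in TE, with log2 fold changes of -4.19 ± 0.54 at D10 and -4.59 ± 0.72 at E4.

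Id1 and Id3, relatives of Id2, had lower mean levels in TE than in ICM at both times. Id1 averaged 1.87 ± 2.23 CPM in D10 TE, against 71.2 ± 54.3 in D10 ICM, and had 0 counts in E4 TE, against 25 in E4 ICM. Id3 averaged 4.70 ± 1.78 CPM in D10 TE, against 27.0 ± 16.7 in D10 ICM, and 8.34 ± 14.96 in E4 TE, against 179 ± 121 in E4 ICM. Over time in the ICM, Id1 rose (log2 2.37 ± 0.56) and Id3 fell (-2.44 ± 0.49), as did Gata6 (-1.04 ± 0.30), whose call failed without the zona litters. In the TE, Elf2 (0.94 ± 0.30) and Tead1 (0.79 ± 0.25) rose and Tead3 (-1.18 ± 0.38) fell, and each call failed in 5 to 8 of 28 alternatives. Of the other AP-2 genes listed, Tfap2b and Tfap2e had at most 1 count in any group, and so did Tbr1, the closest T-box relative of Eomes.

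Among 31 other trophoblast transcription factors, 17 were tested. In TE against ICM, 6 were higher and 2 lower at D10, and 7 were higher at E4 with the other 10 not passing. The median log2 fold changes were 0.39 and 0.71. The shares called over all tested genes were 12.6% higher and 12.9% lower at D10, and 15.4% and 15.8% at E4. Grhl1, an epithelial grainyhead factor, was higher in TE by a log2 fold change of 1.99 ± 0.37 at D10 and 2.31 ± 0.37 at E4, and Arid3a, an AT-rich interaction factor that acts in the mouse trophectoderm, by 2.46 ± 0.51 and 3.66 ± 0.57. Cited1, which the primitive endoderm list also holds, was lower in TE at D10, with a log2 fold change of -4.55 ± 0.67. The most abundant of the list, Klf5, averaged 893 ± 267 CPM in D10 TE, 719 ± 197 in D10 ICM, 819 ± 118 in E4 TE and 502 ± 54.5 in E4 ICM. Elf5, a trophoblast stem cell factor, averaged 69.0 ± 27.8 CPM in D10 TE, against 161 ± 52.4 in D10 ICM, and 119 ± 76.5 in E4 TE, against 110.2 ± 44.3 in E4 ICM.

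Over time, 3 of the 17 rose and 3 fell in the TE, and 3 rose and 1 fell in the ICM. Of all tested genes, 11.9% were called higher and 9.89% lower in the TE, and 13.7% and 9.97% in the ICM. The counts of the list are therefore not read as a trait of it. Bhlhe40, a helix-loop-helix repressor, rose in both tissues, with 298 ± 67.3 CPM in D10 TE against 42.0 ± 50.7 in E4 TE and 83.3 ± 27.9 in D10 ICM against 10.1 ± 4.10 in E4 ICM. Its log2 fold changes, D10 over E4, were 2.62 ± 0.43 in the TE and 2.96 ± 0.57 in the ICM. Sox15 rose in the TE (2.82 ± 0.74), with 99 counts in D10 TE against 8 in E4 TE, though not with limma voom. Ets2 (1.77 ± 0.42) and Cited1 (3.36 ± 0.65) rose in the ICM. Cited1 varied widely there, at 197 ± 246 CPM in D10 ICM against 25.1 ± 19.2 in E4 ICM. Irx3 fell in both, with log2 fold changes of -3.41 ± 0.83 in the TE and -2.20 ± 0.66 in the ICM, with 5 counts in D10 TE against 35 in E4 TE; the ICM call failed without E4 ICM replicate 3 and without D10 ICM replicate 4. Klf6 fell in the TE (-0.77 ± 0.21) and was the 1 gene of the list whose changes differed between the tissues (-1.28 ± 0.30, adjusted p = 0.0131). For that difference, 1.83% of all tested genes were called higher and 3.15% lower.

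Structural and transport genes of the trophectoderm epithelium moved as follows. Of 29 tested, 20 were higher and 2 lower in TE than ICM at D10, and 17 higher and 2 lower at E4. The shares over all tested genes were 12.6% higher and 12.9% lower at D10, and 15.4% and 15.8% at E4. At D10 against E4, 9 rose in the TE and 12 in the ICM, with 0 called lower by edgeR. Over all tested genes, 11.9% rose and 9.89% fell in the TE, and 13.7% rose and 9.97% fell in the ICM. Gm2a, the GM2 activator of lysosomes, was the most abundant of the list in TE, at 3215 ± 300.1 CPM in D10 TE against 531 ± 89.3 in D10 ICM and 3997 ± 651 in E4 TE against 666 ± 217 in E4 ICM. In the TE, Sin3b, a corepressor, rose by 1.31 ± 0.23 on the log2 scale, and Aqp9, a water and solute channel, by 1.16 ± 0.26. Krt19, a simple-epithelium keratin, rose in the TE by 3.42 ± 0.69, with 158 counts in D10 TE against 8 in E4 TE. With so few counts at E4, the size of the Krt19 rise is poorly known. Only 21 alternatives covered it, and the call held in those. In the ICM the glucose transporter gene Slc2a3 rose by 1.20 ± 0.22 and Krt18, a keratin, by 1.05 ± 0.25. The change differed between tissues for 4 of the 29, beside 1.83% of all tested genes called higher and 3.15% called lower. Of the 4, Sin3b was higher on the TE side (1.70 ± 0.33). Cldn7 (-1.34 ± 0.33), Slc2a3 (-1.14 ± 0.30) and Ptges (-1.95 ± 0.58) were lower. Without the zona litters those 3 calls failed. The Ptges call failed in 16 of 28 alternatives in all, with an adjusted p of up to 0.118, and the Slc2a3 call in 3, which include no filter and thinned libraries.

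Genes of giant cells and the mural trophectoderm, the population in which Hand1 acts, were measured in part. Of 16 listed, 12 were in the table and 6 were tested, and Prl2c2, Cts8 and Mmp9 had 0 counts in D10 TE, as they did in E4 TE. Ndrg1, a stress-responsive gene, was at 5232 ± 1909 CPM in D10 TE against 1105 ± 836 in D10 ICM and 3114 ± 1643 in E4 TE against 306 ± 144 in E4 ICM. Plet1, a trophoblast surface gene, was lower in TE, at 26.2 ± 43.4 CPM against 199 ± 73.4 in D10 ICM and 98.4 ± 51.4 against 352 ± 183 in E4 ICM, though the E4 call failed without the zona litters. Podxl, a sialomucin, was lower in TE at D10, at 6.84 ± 8.11 CPM against 244 ± 164 in D10 ICM. Plac1, a placental surface gene, fell in the TE, to 25.2 ± 14.9 CPM at D10 against 127 ± 88.2 at E4. The homeobox gene Rhox6 rose, with 137 counts in D10 TE against 2 in E4 TE and 101 in D10 ICM against 0 in E4 ICM. In TE against ICM, 2 of the 6 were higher and 2 lower at D10 and 2 higher and 1 lower at E4. The shares over all tested genes were 12.6% higher and 12.9% lower at D10, and 15.4% and 15.8% at E4. Over time 2 rose and 2 fell in the TE and 4 rose in the ICM. Over all tested genes, 11.9% rose and 9.89% fell in the TE, and 13.7% rose and 9.97% fell in the ICM.

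Genes whose profile over the 4 groups lay nearest to that of Cdx2, Gata3 or Eomes were found by distance between mean log2 CPM values, each centred on its own mean, among 3330 or 3331 tested genes at or above the median level. Nearest to Cdx2 were Acadm (distance 0.0987), Malat1 (0.126) and Iqgap1 (0.152). Acadm, an enzyme of fatty acid oxidation, averaged 441 CPM in D10 TE, 202 in D10 ICM, 209 in E4 TE and 119 in E4 ICM. Nearest to Gata3 were Lcp1 (0.153), Slc5a11 (0.181) and Cnn2 (0.268), and Lcp1, an actin-bundling protein, averaged 2419 CPM in D10 TE, 749 in D10 ICM, 1608 in E4 TE and 467 in E4 ICM. Nearest to Eomes were Egln1 (0.237), Tdrp (0.317) and Hic2 (0.335), and Egln1, an oxygen-sensing prolyl hydroxylase, averaged 276 CPM in D10 TE, 133 in D10 ICM, 576 in E4 TE and 191 in E4 ICM. With 4 groups the measure only describes which group means differ by like amounts on the log2 scale.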

How the data were processed

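Raw counts per gene and barcode were used as deposited by the authors, in 1 table of 21470 genes and 20 libraries with totals of 144276 to 1010354. Per the labels' protocols, the RNA of each tissue was copied from an oligo-dT primer carrying a barcode (BRB-seq, which reads 3′ ends), and replicates of a group were mixed before PCR. Per the submitters' processing notes, the tools were featureCounts 2.0.1, HISAT2 2.2.1, Trim Galore 0.6.7 and UMI-tools, with GRCm38 and GRCh38 named as builds. The sources used here do not give the strand setting, the annotation or whether UMIs were collapsed. Counting intervals cover at most counting error, and would be too narrow for that if PCR copies were counted. It is not stated how many embryos went into a library, and p-values reflect the variation among libraries that came from 5 different litters per time.

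Differences were tested in R 4.3.3 with edgeR 4.0.16 (quasi-likelihood), using TMM factors (0.837 to 1.17) and filterByExpr at a minimum count of 10, in 1 fit of 4 groups, with Benjamini-Hochberg adjustment over 6943 genes and a threshold of 0.05. The scripts were tested on simulated data. Alternatives were RLE factors, no filter, a minimum count of 20, DESeq2 1.42.0, limma 3.58.1 voom and thinned libraries. Others were only the groups compared, no zona litters, a litter block and leaving out each library. Not every alternative was run for every comparison, and the litter block was not fitted for D10 against E4. Within a time, TE and ICM libraries of 1 number share a litter per the deposited barcode list. On average same-litter libraries deviated together (mean correlation across genes 0.177 at E4 and 0.168 at D10). For different litters the means were -0.043 and -0.042. Same-litter values ran from 0.104 to 0.263 at E4 and from -0.030 to 0.293 at D10, so not every D10 pair did so. Every pair of libraries within a group differed by more than counting noise (lowest chi-square per degree of freedom 2.57). No column of per-sample values was left unused. The members and lists were chosen with earlier results of these data known. Genes named are all members, up to 4 per list and comparison with the smallest adjusted p among those that passed, up to 3 abundant ones per list, the 3 nearest profiles, and list genes at 0 in a group. Positions come from GENCODE vM21 on GRCm38 and promoters from RefSeq.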

Additional observations from a re-analysis of the deposited data

Results flagged for a closer look

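Single libraries that stood apart from the other 4 of their group were sought in 38 sets of 5 values, and 4 were found. Chance alone gives about 1 in 20 for normally distributed values, and low counts need not follow that rate. Cdx2 was at 61.0 CPM in D10 ICM replicate 2, the highest of that group. Gata2 was at 195 CPM in D10 ICM replicate 1, the highest of its group. Tead4 was at 86.2 CPM in E4 ICM replicate 2, also the highest. Hand1 was at 1.75 CPM in D10 TE replicate 4, which is 1 count beside 4 libraries at 0, a set that the rule always flags.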

How the results depend on the processing

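Of the 45 results for single factors, 32 kept direction and threshold side in all of the 29 alternatives that covered the comparison and gene. Of 1262 values, 1230 did so, 23 no longer passed, 3 newly passed and 6 changed sign. All 6 sign changes were of values that did not pass: with thinned libraries Tead4 in TE against ICM at E4 (-0.065) and the Tfap2a difference of changes (0.018); without the zona litters the differences of changes of Cdx2 (-0.034) and Tead4 (-0.031); and, leaving out 1 library, the Tead4 difference of changes (-0.019 to 0.28, negative without E4 ICM replicate 2) and the Gata2 change in the TE (-0.28 to 0.0029, positive without D10 TE replicate 2).

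Without a filter, 1 factor was lower in TE at D10 (Hand1), 1 fell in the ICM, 1474 of all genes were lower in TE at D10, and 352 had a lower difference of changes. With limma voom 1 factor fell in the ICM. With thinned libraries (3849 genes tested, so fewer calls), 1 factor rose in the TE and 1 fell in the ICM. All genes called higher and lower were then 445 and 454 for TE against ICM at D10, 649 and 562 at E4, 425 and 363 over time in the TE, 526 and 332 in the ICM, and 60 and 126 for the difference of changes. Without the zona litters 1 factor fell in the ICM, 379 of all genes fell in the ICM, and 54 and 144 had a higher and lower difference of changes. Leaving out 1 library gave 7 to 8 factors higher in TE than in ICM at E4. Over time it gave 1 to 2 factors that rose in the TE, and 1 to 2 that rose and 1 to 3 that fell in the ICM. A lower difference of changes was then called for 0 to 1 factors, and a higher one for 83 to 128 of all genes (83 without D10 ICM replicate 2). The cause of these moves was not tested, apart from the smaller number of genes noted. With the replicate block for litter, 8 factors were higher in TE at D10 and 8 at E4, as without it. The block changed no call of a factor in the tissue comparisons or the difference of changes. It was not fitted for D10 against E4, because each litter belongs to 1 time.

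Depth limits Hand1, Cdx2 and Tead4 above all, with at most 20, 234 and 133 counts in a group. It also limits comparisons that involve the lowest groups of Gata2 (87 counts in E4 ICM), Tfap2a (87 in D10 ICM) and Tfap2c (89 in E4 ICM).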
